A study of Mus musculus with 3 samples.

Results

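The Zfp genes of the mouse are the genes whose symbol is Zfp followed by a number, most of which encode proteins with zinc fingers of the Cys2-His2 kind. Here they were read in the mouse macrophage line RAW264.7, on 1 array after 0 h, 2 h and 12 h of lipopolysaccharide (LPS), the bacterial outer membrane component sensed through Toll-like receptor 4. A gene was included when its annotated symbol had this form, leaving out Zfp36 and its relatives Zfp36l1, Zfp36l2 and Zfp36l3, which encode RNA-binding proteins of another finger type, and when a probe set annotated to that gene alone reached a signal of 35 on at least 1 of the 3 arrays. Of 170 such Zfp genes on the array, 94 met the signal condition and are called members below. The other 76 stayed under 35 on all 3 arrays. The share that reached 35 was 55.3% of Zfp genes, against 70.5% of the 12393 genes with a probe set of their own.

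In a zinc finger of the Cys2-His2 kind a zinc ion is held by a pair of cysteines and a pair of histidines. It keeps a short stretch of the protein in a fold that can read DNA. Arrays of such fingers give each protein its own sequence preference. Many family members also carry a KRAB domain, which recruits the corepressor TRIM28 (KAP1) and, through it, the histone methyltransferase SETDB1 and HP1 proteins. They are best known for silencing retroelements and protecting imprints. Others regulate single genes, bind RNA, or act in ribosome quality control, ubiquitin transfer and mitosis.

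Each time was 1 array, so there was no replicate, no test between times and no p-value, and the error between cultures was not measured. The labels give no dose of LPS and name no untreated culture at 2 h or 12 h, so time in culture and LPS cannot be told apart. The only error the data hold is how far the probe sets of a gene differ from each other. The standard deviation of their log2 differences was 0.33 at 2 h against 0 h, 0.36 at 12 h against 0 h and 0.32 at 12 h against 2 h over all genes. A gene is called higher or lower below when its signals differ at least 2-fold, with signals under 35 set to 35 first. A gene under 35 on 1 array of a pair has a bound, written "at least". Signals are the authors' linear, scaled values, each probe set has its own brightness, and signals of different genes are not compared. In bulk RNA, fewer cells with a transcript and less transcript per cell cannot be told apart.

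All 9 macrophage markers on the array were above 35 at all times, among them Lyz2, with signals of 6256, 6134 and 6298 at 0, 2 and 12 h, and Csf1r, with 3808, 3619 and 3005. None of 5 T cell markers reached 35. Of the markers of other cell types, 1 of 4 B cell genes, 1 of 5 fibroblast genes and 1 of 4 epithelial genes did so on some array. The B cell gene Ms4a1 did so at 12 h alone, with 54.5. The fibroblast gene Col1a2 (60.1, 38.6 and 64.4) and the epithelial gene Krt8 (67.1, 60.8 and 52.7) did so on all 3 arrays. The LPS-induced Tnf had a signal of 3348 at 2 h against 184 at 0 h. Of the 9 macrophage markers 4 were at least 2-fold higher at 12 h than at 0 h; whether this bears on the members' values was not tested. The 3 arrays shared a 2% trimmed mean of 150.05, and their medians were 56.3, 51.0 and 54.4.

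The 250 bases before the annotated transcription start are shown for the members that differed at least 2-fold between 2 h and 0 h and have a single promoter entry, so that the letters upstream of the most changed members can be compared. They come from RefSeq, build GRCm38.p6, and are written 5′ to 3′ on the gene's own strand. Capitals mark the GC box GGGCGG, the binding motif of SP1 family factors, on either strand. Zfp296, the only one of them that was higher, lies at chr7:19577037-19577286 on the plus strand. Zfp33b lies at chr5:104571422-104571671 (plus), Zfp472 at chr17:32965581-32965830 (plus) and Zfp777 at chr6:48047795-48048044 (minus).

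Zfp296: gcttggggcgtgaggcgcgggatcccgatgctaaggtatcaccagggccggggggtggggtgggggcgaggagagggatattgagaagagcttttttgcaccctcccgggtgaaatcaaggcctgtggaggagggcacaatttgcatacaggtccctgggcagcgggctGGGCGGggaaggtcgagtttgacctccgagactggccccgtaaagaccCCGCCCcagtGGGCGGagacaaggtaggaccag

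Zfp33b: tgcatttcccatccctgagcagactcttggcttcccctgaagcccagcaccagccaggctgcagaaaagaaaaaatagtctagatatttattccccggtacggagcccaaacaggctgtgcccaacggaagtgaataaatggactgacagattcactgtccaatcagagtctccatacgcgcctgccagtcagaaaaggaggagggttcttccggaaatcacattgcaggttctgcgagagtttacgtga

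Zfp472: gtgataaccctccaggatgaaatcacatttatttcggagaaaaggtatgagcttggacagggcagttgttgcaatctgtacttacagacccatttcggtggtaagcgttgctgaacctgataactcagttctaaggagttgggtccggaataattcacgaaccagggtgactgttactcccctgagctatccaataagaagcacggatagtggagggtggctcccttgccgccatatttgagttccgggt

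Zfp777: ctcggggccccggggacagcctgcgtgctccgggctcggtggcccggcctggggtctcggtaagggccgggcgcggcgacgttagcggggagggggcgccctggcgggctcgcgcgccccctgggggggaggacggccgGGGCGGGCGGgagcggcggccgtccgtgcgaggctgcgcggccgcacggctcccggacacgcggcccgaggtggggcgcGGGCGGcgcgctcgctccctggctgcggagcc

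The Zfp296 stretch holds 3 GC boxes and 64.0% GC. That of Zfp777 holds 3 and 84.0%, counting separately the boxes that overlap in its first run of capitals. The stretches of Zfp33b (50.4% GC) and Zfp472 (48.0%) hold none. The 3 lowered genes shown therefore include promoters with and without GC boxes. Promoter entries existed for 75 of the 94 members, with 92 promoters of 300 bases, from 250 before to 50 after the start. GGGCGG was found in 56 of these 92, or 60.9%, against 61.1% of the 9158 promoters of all genes that reached 35 and 35.7% of all 32851 promoters. CCGGAAGT, an ETS family motif, was in 7.61% of member promoters against 8.01% of those of genes that reached 35. The motif of ZNF143 was in 2.17% against 2.31%. AAGATGGCG, a YY1 motif, was in 3.26% against 2.89%. Of motifs linked to LPS signalling, the degenerate NF-kB motif was in 13.0% of member promoters against 10.6%, and the interferon-stimulated response element in 1.09% against 3.17%. TATAAA was in 6.52% against 7.79%. Both strands were searched for each motif, and matches of different motifs were counted separately even where they could overlap. The median GC content was 57.8% in member promoters, 60.3% in promoters of genes that reached 35 and 52.7% in all promoters.

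The family as a whole was nearly flat between 0 h and 2 h of LPS. On at least 1 of those arrays 89 members reached 35; of these, Zfp296 was past 2-fold upward, and Zfp33b, Zfp472, Zfp644 and Zfp777, 4 in all, were past 2-fold downward. Among all 8413 genes measured the same way, 2.09% were higher and 1.68% lower. Members that pass through the array where they are high are part of these counts, which are a description. Within a fold of 1.5 lay 74 of the 89 members, 83.1%, against 84.8% of all genes. The median log2 difference was -0.13 over members and -0.10 over all genes, and 61 members, 68.5%, were below 0, against 62.4% of all genes. With the arrays scaled to one median the all-gene median moved by 0.13, to 0.03, and the member median was -0.0028. The member median stayed below 0 under all 9 alternatives run for it. It lay below the all-gene median under some of them and above it under others. Under quantile normalization it was -0.0178, against -0.0502 over all genes.

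**Figure D1:**
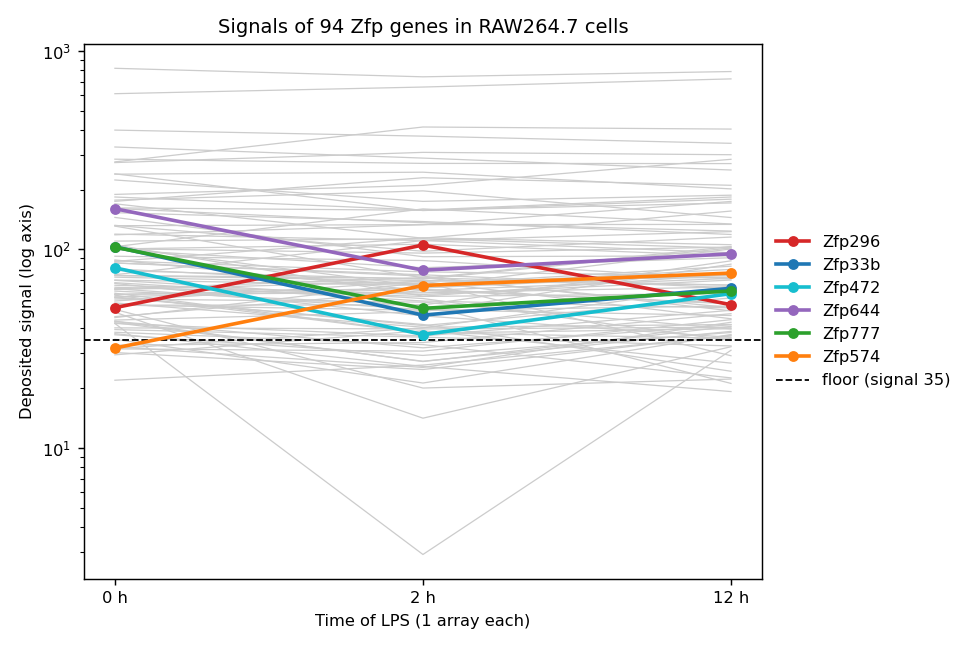
Deposited signal (log axis) of the 94 Zfp members at 0 h, 2 h and 12 h of LPS, 1 array each; grey lines are single members, coloured lines the 6 that differed at least 2-fold from 0 h at 2 h or 12 h, and the dashed line the floor of 35. The coloured lines of the lowered members run downward to 2 h and partly back by 12 h, and Zfp296 is at 105 at 2 h and at 52.6 at 12 h.

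Zfp296, which encodes a zinc finger factor known from pluripotent stem cells, had signals of 50.8 at 0 h, 105 at 2 h and 52.6 at 12 h. It was 2.07-fold higher at 2 h than at 0 h and stood at 1.04 times its 0 h signal at 12 h. Zfp296 was read by 1 probe set, so no second probe set bears on this peak.

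Zfp33b had signals of 103 at 0 h, 46.6 at 2 h and 63.6 at 12 h, or 2.21-fold lower at 2 h. Zfp472 had 80.7, 37.2 and 59.8 and was 2.17-fold lower at 2 h. Zfp777 had 102.5, 50.4 and 61.7 and was 2.03-fold lower. In all 3 genes, each read by 1 probe set, the 12 h signal lay between the 2 h and the 0 h signal.

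Zfp644, the fourth, had signals of 160, 78.5 and 94.9 by its brightest probe set and was 2.04-fold lower at 2 h. That probe set carries the suffix of sets that may match more than 1 transcript. A second probe set of the gene had 82.7, 65.3 and 96.2, or 1.27-fold lower at 2 h and 1.16-fold higher at 12 h than at 0 h. The probe sets of Zfp644 thus had the same direction at 2 h and opposite directions at 12 h.

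Just outside 2-fold at 2 h was Zfp362, 1.82-fold lower with 71.8 at 2 h against 130.9 at 0 h. Zfp764 was 1.81-fold lower, with 58.1 against 105.2, and Zfp109 1.58-fold lower, with 38.0 against 60.1. None of these 3 was read by more than 1 probe set. On the higher side Zfp574 was at least 1.88-fold, Zfp281 1.55-fold and Zfp932 1.5-fold higher. The other members past 1.5-fold downward were Zfp955a (91.8 against 144.8), Zfp397 (65.1 against 102.7), Zfp869 (37.8 against 58.7) and Zfp46 (156.8 against 240.1). At a fold of 1.5 the counts were 4 higher and 11 lower of 89, against 5.59% and 9.66% of all genes. A floor of 35 hides decreases of genes that start low, so a 2-fold decrease could be seen only from a 0 h signal of 70 or more. Of the 48 members with such a signal, 4 were at least 2-fold lower, against 2.27% of all genes with such a signal, and 9 were at least 1.5-fold lower, against 10.2%. Under median scaling or quantile normalization 1 member was 2-fold lower.

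At 12 h the family was again close to its 0 h signals. Of 93 measured members 1 was past 2-fold upward and 0 downward, where 3.0% of 8614 genes were higher and 2.43% lower. The median log2 difference was -0.10 over members and -0.05 over all genes. The standard deviation of the differences was 0.42 over members and 0.55 over all genes. At a fold of 1.5, 4 members were higher and 10 lower, against 8.2% and 10.5% of all genes. Of the 48 members with a 0 h signal of at least 70, 0 were at least 2-fold lower, against 3.37% of all genes with such a signal, and 6 were at least 1.5-fold lower, against 12.8%.

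**Figure D2:**
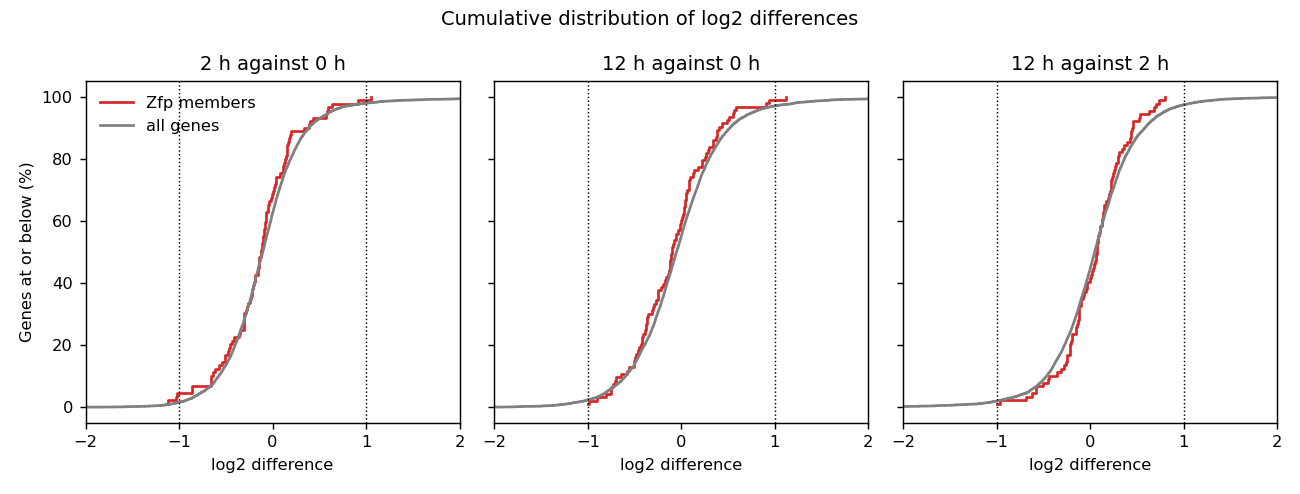
Cumulative share of genes (%) at or below each log2 difference, for Zfp members (red) and all genes with a measured difference (grey), in the 3 comparisons; dotted lines mark 2-fold, and differences beyond 4-fold are not drawn. The curves nearly overlie at 2 h against 0 h, where the medians were -0.13 for members and -0.10 for all genes, and the member curve ends inside 2-fold on both sides at 12 h against 2 h.

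The higher gene at 12 h was Zfp574, and its probe sets disagreed. Its brightest probe set had signals of 31.8 at 0 h, 65.7 at 2 h and 75.9 at 12 h, or at least 2.17-fold higher at 12 h. A second probe set had 68.1, 52.7 and 35.3, or 1.93-fold lower at 12 h, and the other had 48.8, 40.3 and 53.2. The direction of Zfp574 is therefore uncertain. It was the only member with probe sets at least 1.5-fold apart in opposite directions.

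Close to 2-fold on the higher side at 12 h were Zfp617, with signals of 84.2 at 12 h against 44.0 at 0 h and a fold of 1.91, Zfp948, at least 1.87-fold, and Zfp639, 1.5-fold with 284.2 against 189.1. On the lower side Zfp101 was at least 1.99-fold lower, with 34.7 against 69.8, Zfp362 1.98-fold lower, with 66.0 against 130.9, and Zfp868 1.87-fold lower, with 36.0 against 67.3. Zfp101 crossed 2-fold when the arrays were rescaled to one trimmed mean and the floor set at the 40th percentile of signals, 34.87.

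Between 2 h and 12 h none of 89 measured members differed 2-fold, where 2.62% of 8449 genes were higher at 12 h and 2.0% lower. At a fold of 1.5, 5 members were higher and 5 lower, against 10.1% and 6.51% of all genes. Of the 40 members with a 2 h signal of at least 70, 0 were 2-fold lower, against 2.87% of such genes, and 1 was 1.5-fold lower, against 8.21%. Zfp296 was just outside 2-fold, lower by a ratio of 1.998 with 52.6 at 12 h against 105.1 at 2 h, and Zfp932 was at least 1.95-fold lower. On the higher side were Zfp617 at 1.74-fold, Zfp524 at 1.67-fold, with 87.5 against 52.4, and Zfp948 at 1.62-fold. This comparison shares its arrays with the other 2.

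By timing, 88 members and 8307 genes in all had a measured difference from 0 h at both times, and both differences share the 0 h array. Each gene was read by its brightest probe set alone. Other probe sets of Zfp644 were higher at 12 h, and Zfp574 had lower probe sets at both times, so the places of these genes below are uncertain. Lower by 1.5-fold at both times were 6 members, namely Zfp109, Zfp33b, Zfp362, Zfp644, Zfp777 and Zfp955a, where 3.61% of all genes were. At 2 h alone 5 were lower by 1.5-fold, namely Zfp397, Zfp46, Zfp472, Zfp764 and Zfp869, against 6.01% of all genes, and at 12 h alone 4, namely Zfp101, Zfp120, Zfp212 and Zfp868, against 7.22%. Higher by 1.5-fold were Zfp574 at both times, Zfp281, Zfp296 and Zfp932 at 2 h alone, and Zfp617, Zfp639 and Zfp948 at 12 h alone. The shares of all genes in these patterns were 2.59%, 2.79% and 5.09%. No member was 1.5-fold apart in opposite directions at the 2 times, where 0.253% of all genes were. These counts of 0 to 6 members are small and are given as a description.

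Probe sets that read the same gene give the one check within an array. At 2 h against 0 h, 25 members had several measured probe sets. In 15 of them all probe sets had the same sign, 13 lower and 2 higher, and the median range within a gene was 0.37 on the log2 scale. At 12 h against 0 h it was 9 of 27, 7 lower and 2 higher. These counts were not made over all genes, so they do not set the members apart. By brightest probe set, 62.4% of all genes were below 0 at 2 h and 55.1% at 12 h. Over the members, the standard deviation between probe sets was 0.32 at 2 h and 0.42 at 12 h.

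**Figure D3:**
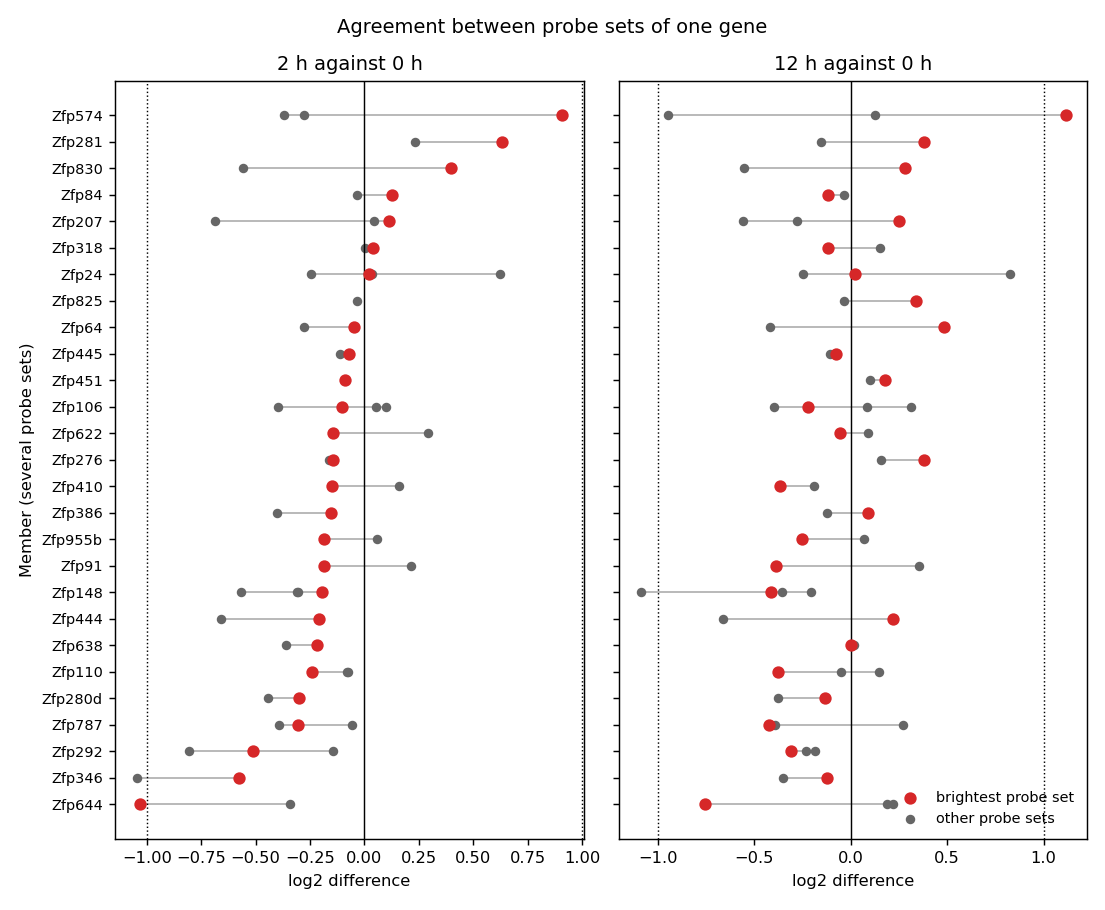
log2 difference of each measured probe set (dots) for the members with several probe sets, at 2 h and at 12 h against 0 h; the red dot is the brightest probe set and grey lines join the probe sets of a gene. Zfp346 and Zfp292 have all dots left of 0 at 2 h, and Zfp574 has dots on both sides of 0 at 12 h.

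Members whose probe sets agreed are named here, some chosen after their values were seen. Zfp346, a double-stranded RNA-binding protein, was lower at 2 h by both of its probe sets. The first had signals of 169.6, 113.7 and 155.9 at 0, 2 and 12 h, or 1.49-fold lower at 2 h, and the second had 189.8, 91.9 and 148.9, or 2.07-fold lower. Both were within 1.3-fold of the 0 h signal at 12 h, at 1.09-fold and 1.27-fold lower.

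Zfp148, a factor that binds GC-rich DNA, was lower by all 4 of its probe sets at 2 h and at 12 h. The brightest had signals of 85.3, 74.4 and 64.0, and the other probe sets gave log2 differences between -1.09 and -0.20 at 12 h. Zfp292 was lower at 2 h by all 3 measured probe sets, by 0.15 to 0.80 on the log2 scale. Zfp281, a zinc finger regulator of pluripotency genes, was higher at 2 h by both probe sets, with signals of 159.8 against 103.1 by one and 131.9 against 112.4 by the other. At 12 h the probe sets of Zfp281 lay on both sides of 0.

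The 8 brightest members, by mean log2 signal, were Zfp622, Zfp207, Zfp106, Zfp330, Zfp871, Zfp91, Zfp445 and Zfp598. By the brightest probe set of each gene, all 8 lay within 1.5-fold of 0 h at both times. Zfp330 came nearest to that limit, with signals of 275.8, 413.4 and 403.5, and Zfp871 had 273.6, 308.0 and 299.7; each was read by 1 probe set.

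The members were also grouped by known role, and by brightest probe set no role list held a member 2-fold apart in any comparison. With 1.68% to 3.0% of all genes called per direction, lists of 3 to 9 measured members are too small for a count of 0 to set them apart. The RNA and ribosome list had 9 members on the array, all above 35 on at least 1 array. Its medians were -0.10 at 2 h and -0.17 at 12 h. Zfp622, whose human counterpart ZNF622 binds new large ribosomal subunits, had signals of 816.9, 740.0 and 786.7 by its brightest probe set. Its other probe set had 72.3, 88.4 and 76.9, or 1.22-fold higher at 2 h, the opposite direction. Zfp598, the ubiquitin ligase that marks collided ribosomes, had 239.1, 244.7 and 201.6. Zfp106, an RNA-binding protein, had 398.8, 371.8 and 342.1 by its brightest probe set, while a second probe set had 238.0, 246.5 and 295.2, the opposite direction. Zfp385a, an RNA-binding target of p53, had 52.3 at 0 h, 52.5 at 2 h and 21.1 at 12 h, or at least 1.49-fold lower at 12 h.

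The list for ubiquitin, SUMO and mitosis had 3 members, with median log2 differences of -0.09 at 2 h and 0.18 at 12 h. Zfp207, which binds BUB3 at kinetochores, had signals of 608.4, 657.2 and 722.4 by its brightest probe set, but 2 dimmer probe sets were lower at 12 h, by 1.21-fold and 1.47-fold. The second of these, with 85.2, 52.9 and 57.9, was also 1.61-fold lower at 2 h. Zfp91, a ubiquitin ligase of the alternative NF-kB pathway, had 327.8, 288.2 and 251.0 by its brightest probe set and 128.7, 149.4 and 164.5 by another, so its direction differs by probe set. Zfp451, a SUMO ligase, had 70, 65.8 and 79.2.

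**Figure D4:**
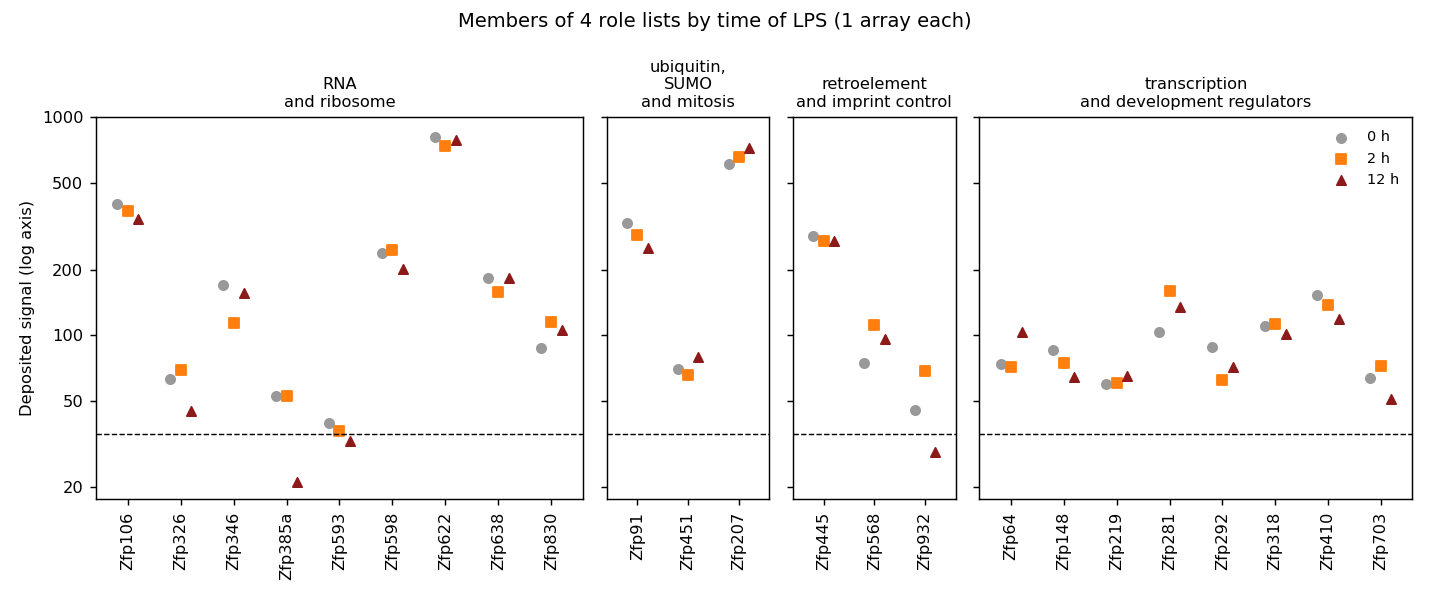
Deposited signal (log axis) at 0 h, 2 h and 12 h of LPS, 1 array each, for the members of 4 role lists that reached 35, by the brightest probe set of each gene; the dashed line is the floor of 35. The 3 symbols of a gene lie close together for most, while Zfp346 has its lowest signal at 2 h, and Zfp932, Zfp385a and Zfp593 are under the floor at 12 h.

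Of 4 retroelement and imprint genes on the array, 3 reached 35. Zfp445, which protects imprints, had signals of 284.6, 271.0 and 270.4, and its second probe set differed from 0 h by under 0.12 on the log2 scale at both times. Zfp568, a repressor of a placental Igf2 transcript, had 74.5, 110.7 and 96.1, 1.49-fold higher at 2 h. Zfp932, a repressor of endogenous retroviruses, had 45.3, 68.1 and 29.1. Zfp57, the other imprint protector listed, was at 3.9, 3.3 and 2.9.

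Of 11 listed regulators of transcription and development on the array, 8 reached 35, with medians of -0.01 at 2 h and -0.21 at 12 h. At a fold of 1.5 and by brightest probe set, Zfp281 was higher at 2 h, and no other member of the list was apart at 2 h or 12 h. By other probe sets, Zfp148 was 2.13-fold lower at 12 h, with 46.2 against 98.3, and Zfp292 at least 1.75-fold lower at 2 h, with 29.2 against 61.1. Zfp64, whose human counterpart maintains KMT2A expression in leukaemia, had signals of 73.9, 71.4 and 103.3 by one probe set and 73.3, 60.5 and 54.9 by the other, opposite at 12 h. Zfp318, a B cell factor for IgD expression, had 110.0, 112.9 and 101.5. Zfp410, a dedicated activator of Chd4, had 153.0, 138.0 and 118.8 by its brightest probe set, and 59.2, 66.1 and 51.8 by its other. Chd4 itself had 150.7, 151.7 and 89.1 by its brightest probe set, and 96.1, 112.6 and 77.9 by a second. Whether the signals of these genes are linked was not tested. Zfp423 and Zfp521, factors of fat and blood progenitors, had no signal above 35.

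The machinery that KRAB proteins recruit was read beside them from a list of 20 genes, of which 17 were on the array and all 17 reached 35. At 2 h no gene of it was 2-fold apart and 1 was 1.5-fold lower, where 9.66% of all genes were. At 12 h 1 was 2-fold lower, where 2.43% of all genes were, and 4 were 1.5-fold lower, where 10.5% of all genes were. The list median at 12 h was -0.16, against -0.05 over all genes. Trim28, the corepressor, had signals of 812.3, 803.4 and 639.6, and Setdb1 had 220.4, 244.0 and 261.4. Cbx5, which encodes HP1 alpha, had 478.9, 282.2 and 237.0 by its brightest probe set, 2.02-fold lower at 12 h. The other Cbx5 probe sets differed among themselves. One had 145.8, 166.6 and 181.8, higher at 12 h, another had 132.6, 132.5 and 120.5, and a dim one had 42.7, 31.0 and 27.4, at least 1.22-fold lower at 12 h. The direction of Cbx5 is therefore uncertain. The DNA methyltransferase gene Dnmt3a had 277.7, 210.6 and 156.8 by its brightest probe set, or 1.77-fold lower at 12 h, and its other 4 probe sets were lower by 0.04 to 0.57 on the log2 scale.

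Genes of related zinc finger families were read for comparison by their symbols, Zbtb, Zscan and Zkscan followed by a number. Of 35 on the array, 27 were measured at 2 h; their median log2 difference was -0.17, and 1 was past 2-fold upward and 1 downward, where 2.09% and 1.68% of all genes were. At 12 h none of 28 was 2-fold apart, where 3.0% of all genes were higher and 2.43% lower, and their median was 0.01. One of the 35 symbols, Zbtb11os1, names a transcript from the opposite strand of a Zbtb gene. The higher one was Zbtb32, which encodes a repressor in lymphocytes, with signals of 258.9, 633.0 and 380.0.

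At the signal limit, the members just inside were Zfp51, with a highest signal of 36.6, Zfp991, with 36.9, and Zfp90, with 37.2. Just outside were Zfp704, with 34.9, Zfp959, with 34.3, and Zfp553, with 34. By the brightest probe set 71 members were at or above 35 on all 3 arrays, 12 on 2 arrays and 11 on 1. The 11 reached 35 only where they were highest, so their differences follow in part from how they were chosen. Among them Zfp87 had 49.8, 20 and 22.2, Zfp958 had 48.2, 14.1 and 32.3, and Zfp944 had 32.9, 33.9 and 47.4.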

How the data were processed

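RNA of RAW264.7 cells at 0, 2 and 12 h of LPS was read on 3 arrays, 1 per time. The deposited table holds the authors' linear intensity of 22690 probe sets, of which 64 are controls; per the labels, targets were made from 5 µg of total RNA by a modified Affymetrix procedure. How signals were computed and scaled is not given in the sources used here, and the equal trimmed means show only that the arrays were scaled. The platform annotation pairs 20393 with a single gene and 691 with several, and leaves 1606 out; 16 that name a Zfp gene with another gene were not used. All Zfp symbols matched those of the RefSeq table. The 94 members had 160 probe sets. A gene was read by its probe set with the highest mean log2 signal, with values under 35 set to 35 before log2. No p-value was computed. The number of arrays limits the precision. Counting was tested on simulated data, with larger changes in genes of high signal, so it does not bear on 2-fold calls near the floor. Python 3.11.15, numpy 2.4.6 and pandas 2.3.3 were used. Protein sequences were not used here, so members were not split by KRAB domain. The members, lists and rules were chosen with earlier results of these data known. Named members were, per comparison, those past 2-fold and the 3 nearest to it on each side, those with the highest mean signal, those with 3 or more or with opposite probe sets, those nearest to signal 35, and up to 4 per role list. The alternatives were 3 other scalings, 2 other floors, a pseudocount of 16, the median over probe sets, sets without a suffix, RefSeq symbols and a fold of 1.5.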

Additional observations from a re-analysis of the deposited data

How the results depend on the processing

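No paired analysis was possible because each time has 1 array and the labels give no replicate numbers. Against the reported counts of 1 higher and 4 lower at 2 h and 1 higher and 0 lower at 12 h, the floor at the 20th percentile, a signal of 10.8, gave 2 and 7 at 2 h, 2 and 4 at 12 h, and 2 and 2 at 12 h against 2 h. The floor at the 60th percentile, 84.7, gave 0 and 0 at 2 h, with 42 members measured, and 0 higher at 12 h. A pseudocount of 16 gave 0 and 2 at 2 h and 0 higher at 12 h, and the median over probe sets gave 0 higher at 12 h. Median scaling and quantile normalization each gave 1 lower at 2 h and 2 lower at 12 h against 2 h, with member medians at 2 h of -0.0028 and -0.018. Rescaling to one trimmed mean gave 1 lower at 12 h. A fold of 1.5 gave 4 and 11 at 2 h, 4 and 10 at 12 h, and 5 and 5 at 12 h against 2 h. Of 747 values of named members under alternatives, 716 moved by less than the spread between probe sets, 31 by more, and none that was 2-fold apart changed sign. Part of the 716 could not move, such as the median over probe sets for a gene with 1 probe set. Values short of 2-fold did change sign under that median. Zfp574 at 2 h went from 0.91 to -0.28 and Zfp644 at 12 h from -0.76 to 0.19. Zfp296 and Zfp33b stayed 2-fold apart at 2 h under 7 of 9 alternatives, Zfp777 under 5 of 9, Zfp644 under 3 of 9 and Zfp472 under 5 of 8. Most alternatives that kept the calls of Zfp296 and Zfp33b left their values nearly unchanged. Under median scaling and quantile normalization Zfp33b was just past 2-fold, at -1.0016 and -1.007. For Zfp777 and Zfp472 the alternatives that kept the call were those that left the value nearly unchanged. Median scaling, quantile normalization and the pseudocount gave log2 differences of -0.88, -0.89 and -0.84 for Zfp777. For Zfp472 they gave -0.97, -0.95 and -0.86, so both genes fell short of 2-fold there. A higher floor measures fewer genes and sets the signals under it to the floor. With the floor at the 60th percentile, Zfp33b at 2 h went to -0.28. A pseudocount brings the ratio of signals above the floor closer to 1. No other cause of these moves was tested. Median scaling multiplies all signals of an array by the same factor, so members above the floor on both arrays moved together. Signal over background limits members near 35, whose decreases cannot be seen.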

Other observations

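In the order of RefSeq protein-coding genes, with other genes left out, 13 of the 94 members stand directly beside another member, in 5 runs. The run of Zfp51, Zfp53, Zfp52 and Zfp948 held differences of both signs at 12 h against 0 h. Zfp948 had signals of 31.6, 40.2 and 65.3 at 0, 2 and 12 h, Zfp52 had 57.5, 41.3 and 56.9, Zfp53 had 42.7, 27.3 and 38.6, and Zfp51 had 21.9, 26.1 and 36.6. In the run of Zfp397, Zfp35 and Zfp24, Zfp397 was 1.58-fold lower at 2 h, with 65.1 against 102.7. Zfp35 had signals of 118.3, 133.0 and 174.3, and Zfp24 had 131.5, 133.2 and 133.5 by its brightest probe set. A second Zfp24 probe set had 32.4, 53.8 and 62.1, at least 1.54-fold higher at 2 h and 1.77-fold at 12 h. Another had 41.5, 28.8 and 26.2, at least 1.19-fold lower at both times, so the direction of Zfp24 differs by probe set. The neighbours Zfp282 and Zfp212 lay on opposite sides of 0 at 12 h, with log2 differences of 0.40 and -0.80. No run had all of its members 1.5-fold apart in one direction.

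Zfp518b had the lowest member signal on any array, with 42.3 at 0 h, 2.9 at 2 h and 31.0 at 12 h. With the floor at 35 this is at least 1.21-fold lower at 2 h, and its other probe set was under 35 on all 3 arrays, at 6.4, 5.7 and 17.5.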
